A study of Mus musculus with 16 samples.

Results

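The genes described here are 9 genes of retinoid metabolism, measured in 3T3L1 cells, a mouse fibroblast line already committed to the fat lineage (preadipocytes). They are Aldh1a1, Aldh1a2, Aldh1a3, Rdh10, Cyp26b1, Rbp4, Stra6, Crabp1 and Crabp2. The set was chosen by gene symbol, taking every probe whose annotation names 1 of these genes and no other. That gave 1 probe for each gene, so 9 probes of the 38467 on the array and 9 of the 19640 genes that a probe names alone. Aldh1a1 was selected on its measured values in these samples, and which comparison led to its choice is not recorded. Its values are therefore given with their errors as a description, with no test, and tests are given for the other 8 genes. Those 8 genes, too, were chosen with earlier results of these data known, and their p-values do not account for that choice.

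The groups were cells given dex (dexamethasone, a synthetic glucocorticoid) for 2 h, cells given the DMSO vehicle for 2 h, cells given dex for 36 h and cells given DMSO for 36 h. Each group had 4 biological replicates, and each of the 16 arrays compared Cy5-labelled cDNA of a sample with Cy3-labelled cDNA of a pool of the samples. The design asked which genes respond to dex in preadipocytes. The sources used here give neither the dose of dex nor the other contents of the medium, and all 16 samples came from 1 cell line.

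Retinoids are derivatives of vitamin A. Retinol travels in blood on a carrier protein, enters cells through a membrane receptor, is oxidised to retinaldehyde and then, irreversibly, to retinoic acid, which binds nuclear receptors that switch genes on or off. Intracellular binding proteins hold retinoic acid, and a dedicated family of cytochrome P450 enzymes degrades it. In white fat of mice Aldh1a1 is the main enzyme of the retinaldehyde-to-retinoic acid step, and retinaldehyde and retinoic acid have both been reported to restrain fat cell formation.

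The sequences just upstream of the annotated start sites are shown for Aldh1a1 and Cyp26b1, the members on which the results turn. They are the 250 bases before each start, read 5′ to 3′ on the gene's strand from the RefSeq table of build GRCm38.p6, which held 6 of the 9 genes with 11 start sites and no entry for Aldh1a3, Crabp2 or Rdh10. Aldh1a1 has 2 annotated starts. The window of the upstream one is chr19:20492333-20492582 on the plus strand, that of the downstream one is chr19:20601718-20601967 on the plus strand, and that of Cyp26b1 is chr6:84593811-84594060 on the minus strand. Capitals mark a TATAAA match in Cyp26b1 and a CCAAT match in the downstream Aldh1a1 window, and the upstream Aldh1a1 window has no match to any motif searched.
Cyp26b1: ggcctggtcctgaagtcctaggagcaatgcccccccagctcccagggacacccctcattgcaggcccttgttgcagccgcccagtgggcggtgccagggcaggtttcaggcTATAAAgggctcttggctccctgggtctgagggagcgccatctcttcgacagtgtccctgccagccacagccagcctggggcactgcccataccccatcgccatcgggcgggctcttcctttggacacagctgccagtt
Aldh1a1, upstream start: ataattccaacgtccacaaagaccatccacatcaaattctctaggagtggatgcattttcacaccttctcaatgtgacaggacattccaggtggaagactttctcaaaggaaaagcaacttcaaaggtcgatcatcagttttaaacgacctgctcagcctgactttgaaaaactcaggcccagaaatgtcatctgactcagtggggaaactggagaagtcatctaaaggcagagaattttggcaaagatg
Aldh1a1, downstream start: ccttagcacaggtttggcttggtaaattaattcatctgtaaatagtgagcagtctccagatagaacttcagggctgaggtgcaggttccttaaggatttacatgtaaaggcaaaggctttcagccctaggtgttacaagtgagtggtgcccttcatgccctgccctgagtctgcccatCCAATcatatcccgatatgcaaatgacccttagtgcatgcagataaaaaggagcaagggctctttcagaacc

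In those windows the TATAAA of Cyp26b1 lies at -139 to -134 and the CCAAT of Aldh1a1 at -72 to -68, counted from the start site. The letters searched on both strands were the glucocorticoid receptor half-site AGAACA, its palindrome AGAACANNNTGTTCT, the retinoic acid receptor half-site AGGTCA, its direct repeat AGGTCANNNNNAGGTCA, CCAAT and TATAAA. Each palindrome or repeat contains its own half-site. AGAACA was in 2 of the 11 windows, both of Stra6, and in 16.1% of 32851 windows of the same length in the table. AGGTCA was in 0 of the 11 windows and in 14% of all of them, and the palindrome and the repeat were each in 0 of 11 and in 0.00913% of all. CCAAT was in 4 of the 11 windows and in 33.8% of all, and TATAAA in 2 of 11 and in 12.4% of all. The Cyp26b1 window was 64.8% G and C, the Aldh1a1 windows 42.8% and 46.4%, and the median of all windows 52.4%. These are matches of letters only, and no binding was measured.

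Values below are log2 ratios of a sample over the pool, so 0 is the pool's level and a difference of 1 is a change of 2-fold. The log base is not stated with the values and was taken as 2. If they were natural logs, every log2 difference would be larger by a factor of 1.44, with the same direction and test. Ratios do not give how abundant 1 gene's RNA is relative to another's, and signal over background was not analysed here. A gene passed where its Benjamini-Hochberg adjusted p, from 1 limma model over all 38467 probes, was under 0.05. Shares of all probes or genes set beside counts of passing genes are of those that passed. No share of all probes by unadjusted p was computed, so the unadjusted counts have no background beside them. As a check of the labels, Fkbp5, a co-chaperone induced by glucocorticoids, was higher in dex by 2.36 ± 0.12 at 2 h and by 3.11 ± 0.12 at 36 h (SE; adjusted p = 2.36e-08 and 2.24e-10 by limma). Tsc22d3, another classic glucocorticoid target, was higher in dex by 2.76 ± 0.24 at 2 h and by 2.43 ± 0.24 at 36 h (adjusted p = 4.33e-06 and 6.52e-06).

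Array medians lay between -0.011 and 0.0083, so the arrays were centred alike. The arrays were noisier at 2 h, where the SD of probes around their group mean was 0.168 to 0.435 per array, than at 36 h, where it was 0.108 to 0.205. The array of DMSO 2 h replicate 4 stood apart, with a mean correlation across probes of -0.104 with the rest of its group. Dex 36 h replicates 1 and 3 correlated below -0.3 with DMSO 36 h replicate 2 (r = -0.34 for both pairs, across probes). The dyes are stated in the labels, so the direction was kept. Of the marker lists at 2 h, 1 of 9 fibroblast and preadipocyte genes was lower in dex than in DMSO (Pdgfrb, -0.74 ± 0.09) and 0 higher, and of 7 adipocyte genes 1 was higher (Fabp4, 1.60 ± 0.31) and 1 lower (Lpl, -0.47 ± 0.08), where 1.97% of all genes were higher and 1.21% lower. The other probe of Lpl gave -0.18 and did not pass. None of the macrophage, endothelial, epithelial or muscle genes passed at 2 h, with 0, 2, 2 and 1 of them under 0.05 by unadjusted p in the limma fit. At 36 h 6.88% of all genes were higher and 4.96% lower. At that time 5 of 9 fibroblast and preadipocyte genes were lower and 0 higher in dex than in DMSO (median -0.52). Of 7 adipocyte genes 2 were higher and 0 lower, Fabp4 by 2.59 ± 0.31 and Lpl by 0.34 ± 0.08, with 0.02 and no pass at the other Lpl probe. Of macrophage genes 0 were higher and 1 of 7 lower, of endothelial genes 0 of 7 passed, of epithelial genes 1 of 6 was higher (Krt8, by 1.15 ± 0.08) and 0 lower, and of muscle genes 0 were higher and 1 of 7 lower. Between DMSO at 36 h and at 2 h, where 0.27% of all genes were higher and 0.993% lower, 1 of 9 fibroblast and preadipocyte genes (Col1a1, 0.69 ± 0.10) and 1 of 7 muscle genes (Acta2, 0.77 ± 0.13) were higher. In the same comparison 1 of 7 adipocyte genes (Lpl, -0.46 ± 0.08, with -0.25 and no pass at its other probe) and 1 of 6 epithelial genes (Krt8, -0.48 ± 0.08) were lower. There 0 of 7 macrophage and 0 of 7 endothelial genes passed, with 2 and 0 under 0.05 unadjusted by limma. These ratios cannot show whether a marker is present or absent. The part of these shifts in the results on retinoid genes was not tested, and in such bulk RNA fewer cells of a type and less RNA per cell cannot be told apart.

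Aldh1a1 encodes a cytosolic retinaldehyde dehydrogenase that makes retinoic acid. Its RNA was lower in vehicle cells at 36 h than at 2 h, and dex cells at 36 h were above both vehicle groups. At 2 h its log2 ratios in replicates 1 to 4 were 0.41, 0.62, 0.43 and 0.57 in dex, against -0.21, -0.25, -0.25 and 0.031 in DMSO. At 36 h they were 1.26, 1.28, 1.37 and 0.79 in dex, against -2.45, -3.06, -1.63 and -1.79 in DMSO. Every dex array was above every DMSO array at both times. The 4 vehicle arrays at 36 h were the lowest of all 16 and also the most spread, since their values covered more than 1 log2 unit.

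**Figure D1:**
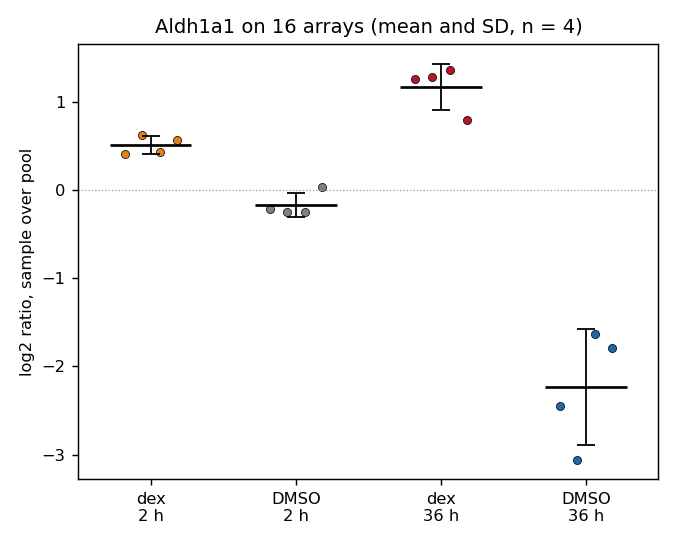
Log2 ratio of Aldh1a1 over the pool on the y axis for each array (points) in the groups on the x axis, dex left of DMSO at 2 h and at 36 h, with the group mean and SD. No neighbouring groups in the order of levels overlap, and the 4 DMSO arrays at 36 h sit between -3.06 and -1.63.

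Group means of Aldh1a1 were 0.51 ± 0.10 in dex at 2 h, against -0.17 ± 0.13 in DMSO at 2 h, and 1.17 ± 0.26 in dex at 36 h, against -2.23 ± 0.65 in DMSO at 36 h (SD, n = 4 each). On a linear scale these means are 1.42 and 0.89 of the pool at 2 h in dex and in DMSO, and 2.26 and 0.213 of it at 36 h. The order of levels was therefore dex at 36 h, dex at 2 h, DMSO at 2 h and DMSO at 36 h, and no neighbours in that order overlapped. Dex minus DMSO was 0.68 ± 0.23 at 2 h (SE; 95% interval 0.18 to 1.18), a 1.60-fold difference. At 36 h it was 3.41 ± 0.23 (2.91 to 3.91), a 10.6-fold difference and the 16th in size among all probes, against the 955th at 2 h. The dex difference at 36 h exceeded that at 2 h by 2.73 ± 0.33 (2.02 to 3.43), the 14th in size among all probes. Because Aldh1a1 was chosen on its values, its ranks here and below only describe it and are no evidence that it stands out. The SEs and intervals of Aldh1a1 pool the spread of all 4 groups, which was largest in DMSO at 36 h. A fit on only the arrays of the 2 groups compared gave an SE of 0.10 at 2 h and 0.29 at 36 h.

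The large late difference of Aldh1a1 was made up more of change in vehicle cells than in dex cells. Within DMSO, Aldh1a1 was lower at 36 h than at 2 h by 4.18-fold, a log2 difference of -2.06 ± 0.23 (-2.56 to -1.57) that ranked 14th in size among all probes. Within dex, it was higher at 36 h than at 2 h by 1.59-fold, a log2 difference of 0.67 ± 0.23 (0.17 to 1.16). From only the arrays of the 2 groups compared, the SE was 0.29 within DMSO and 0.13 within dex. The difference of 3.41 at 36 h is, by arithmetic, the sum of the 0.68 between dex and DMSO at 2 h, the 0.67 by which dex cells were higher at the later time and the 2.06 by which DMSO cells were lower. The dex-minus-DMSO difference at 36 h and the change within DMSO share the DMSO 36 h arrays, so they are not independent. Against the early vehicle cells, dex cells at 36 h stood higher by 1.34 ± 0.23 and did not overlap with them. That last comparison was added after the values were seen.

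Leaving out each of the 16 arrays in turn kept the 36 h difference of Aldh1a1 between 3.13 and 3.61, the 2 h difference between 0.64 and 0.75 and the change within DMSO between -2.26 and -1.79. Only the arrays of the 2 groups compared can move each of these differences. The probe's sequence was not analysed here, so a contribution of Aldh1a7, a closely related mouse gene without a probe of its own in this annotation, was not tested. If the DMSO 36 h signal was near background, the size of the 10.6-fold difference would be uncertain, and this too was not tested.

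Among the other 8 genes, 1 passed between dex and DMSO at 2 h, Cyp26b1, and 0 passed at 36 h. By unadjusted p in the same limma fit, 3 of the 8 were under 0.05 at 2 h and 1 at 36 h. Over all probes 2.22% passed at 2 h and 8.83% at 36 h. With 8 genes, 1 call is too few to set a share against that background, and at 36 h the set had none. For the difference between the 2 dex effects 0 of 8 passed, against 2.4% of all probes, and 2 of the 8 were under 0.05 unadjusted. Between DMSO at 36 h and at 2 h 0 of 8 passed, against 0.816% of all probes, and 2 were under 0.05 unadjusted. Between dex at 36 h and at 2 h 0 of 8 passed, against 1.68% of all probes, and 1 was under 0.05 unadjusted. The median difference of the 8 genes was 0.052 at 2 h and -0.069 at 36 h, beside -0.0097 and -0.0043 over all probes.

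**Figure D2:**
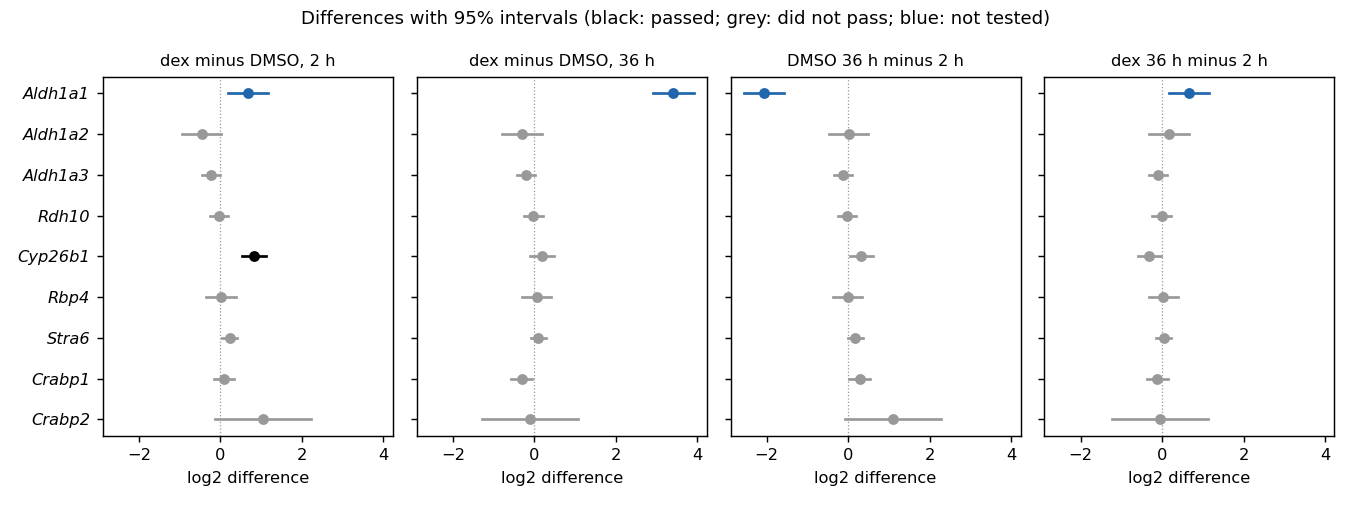
Log2 differences of the 9 genes with 95% intervals, for dex minus DMSO at 2 h and at 36 h and for 36 h minus 2 h within DMSO and within dex. Aldh1a1 reaches 3.41 at 36 h and -2.06 in vehicle over time, and Cyp26b1 is at 0.83 at 2 h. The intervals of Aldh1a2, Rdh10, Rbp4 and Crabp2 include 0 in every panel.

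Counted by whether the 4 arrays of one group lay wholly apart from the 4 of the other, 3 of the 9 genes separated at 2 h, namely Aldh1a1, Stra6 and Cyp26b1, and 5.89% of all probes did. At 36 h Aldh1a1 and Aldh1a3 separated, 2 of 9, against 26.8% of all probes. Between DMSO at 36 h and at 2 h 4 of 9 separated, Aldh1a1, Crabp1, Crabp2 and Stra6, against 10.5% of all probes, and between dex at 36 h and at 2 h only Aldh1a1 did, 1 of 9 against 11.9%. Each of these counts includes Aldh1a1, which was chosen on its values.

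Cyp26b1 encodes a cytochrome P450 that degrades retinoic acid, and its RNA was higher in dex at 2 h. Its log2 ratios in replicates 1 to 4 were 0.32, 0.43, 0.24 and 0.29 in dex at 2 h, against -0.16, -0.73, -0.63 and -0.51 in DMSO at 2 h. All 4 dex arrays were above all 4 DMSO arrays. The difference was 0.83 ± 0.14 (SE; 95% interval 0.54 to 1.11), a 1.77-fold rise with an adjusted p of 0.00216 by limma, and the adjusted p lay between 2.30e-04 and 0.0256 over all 24 alternative settings. At 36 h the ratios were -0.11, 0.41, -0.25 and -0.02 in dex, against -0.23, -0.081, -0.23 and -0.19 in DMSO, and here the groups overlapped. The difference of 0.19 ± 0.14 (-0.10 to 0.48) did not pass (adjusted p = 0.488).

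The drop of the Cyp26b1 difference between the 2 times, -0.63 ± 0.19 (-1.04 to -0.23), did not pass by limma (adjusted p = 0.115), so a change of its dex effect over time was not shown. It passed without DMSO 2 h replicate 1 (adjusted p = 0.0289) and without dex 36 h replicate 2 (adjusted p = 0.019). Within DMSO, Cyp26b1 differed by 0.32 ± 0.14 at 36 h from 2 h (adjusted p = 0.362), and within dex by -0.31 ± 0.14 (adjusted p = 0.325). The dex-minus-DMSO difference of Cyp26b1 was thus larger at 2 h in these arrays and that of Aldh1a1 at 36 h.

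Aldh1a2 and Aldh1a3 encode the other retinaldehyde dehydrogenases of the family, and neither passed in any comparison of the main model. At 36 h Aldh1a3 had ratios of -0.31, -0.49, -0.39 and -0.35 in dex, against -0.18, -0.11, -0.18 and -0.26 in DMSO. All 4 dex arrays were below all 4 DMSO arrays, yet the difference of -0.20 ± 0.10 (SE; 95% interval -0.42 to 0.02) did not pass by limma (adjusted p = 0.283). It passed in a limma fit on only the arrays of the 2 groups (-0.20 ± 0.06, adjusted p = 0.0387). With array weights in limma it passed too (-0.15, adjusted p = 0.0391). At 2 h its difference was -0.22 ± 0.10 (adjusted p = 0.461, unadjusted p = 0.0494). The 36 h difference had the opposite sign to that of Aldh1a1.

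Aldh1a2 had ratios of -0.43, 0.083, -0.47 and 0.035 in dex at 36 h, against 0.11, 0.16, 0.0073 and 0.13 in DMSO, with overlap between the groups. The difference was -0.30 ± 0.23 (-0.78 to 0.19; adjusted p = 0.532 by limma), and it passed only with array weights in limma (-0.40, adjusted p = 0.00788). At 2 h it was -0.46 ± 0.23 (adjusted p = 0.499), and 1 dex array, replicate 2 at -1.18, was far below the other dex arrays, which were at -0.11, -0.08 and -0.08. Without that array the 2 h difference was -0.18.

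Rdh10, the retinol dehydrogenase that makes retinaldehyde from retinol, gave ratios near the pool throughout. Its arrays lay between -0.33 and 0.047 in dex and between -0.33 and 0.16 in DMSO at 2 h, and between -0.25 and -0.040 in dex and between -0.20 and -0.076 in DMSO at 36 h. Dex minus DMSO was -0.04 ± 0.11 at 2 h (SE; 95% interval -0.27 to 0.19; adjusted p = 0.936 by limma) and -0.02 ± 0.11 at 36 h (-0.25 to 0.21; adjusted p = 0.979).

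Rbp4 encodes the retinol carrier of plasma, which fat cells also secrete, and Stra6 a membrane receptor that takes up retinol from it. Rbp4 differed between dex and DMSO by 0.02 ± 0.17 at 2 h (SE; 95% interval -0.34 to 0.38) and by 0.06 ± 0.17 at 36 h (-0.30 to 0.42), with adjusted p = 0.985 and 0.952 by limma. Its DMSO 2 h arrays were the most spread, from -0.73 to 0.45, while those of dex at 36 h lay between -0.12 and 0.017. Stra6 at 2 h had ratios of 0.10, 0.24, 0.034 and 0.15 in dex, against -0.14, -0.21, -0.03 and -0.02 in DMSO. The 2 groups did not overlap, and the difference was 0.23 ± 0.09 (0.05 to 0.42), which did not pass (adjusted p = 0.299, unadjusted p = 0.017). At 36 h Stra6 differed by 0.09 ± 0.09 (-0.09 to 0.28; adjusted p = 0.639), and DMSO arrays at 36 h were above those at 2 h by 0.18 ± 0.09 (adjusted p = 0.45).

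Crabp1 and Crabp2 encode small cytosolic proteins that bind retinoic acid, of which Crabp2 hands it to nuclear receptors. Crabp1 at 36 h had ratios of -0.18, 0.20, -0.44 and 0.11 in dex, against 0.24, 0.35, 0.17 and 0.18 in DMSO. Dex replicate 2 was within the range of the DMSO arrays and the other dex arrays were below it. The difference was -0.31 ± 0.12 (SE; 95% interval -0.56 to -0.06), with an unadjusted p of 0.0201 and an adjusted p of 0.132 by limma, and it passed without dex 36 h replicate 2 (-0.40, adjusted p = 0.0369). At 2 h it was 0.09 ± 0.12 (adjusted p = 0.85). In vehicle cells Crabp1 was at 0.24, 0.35, 0.17 and 0.18 at 36 h, against -0.03, 0.02, 0.073 and -0.25 at 2 h, a difference of 0.28 ± 0.12 without overlap that did not pass (adjusted p = 0.372).

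Crabp2 was near the pool on 15 arrays and far below it on 1. Its ratios at 2 h were 0.11, -0.20, -0.03 and 0.12 in dex, against -0.24, 0.018, -3.65 and -0.31 in DMSO. At 36 h they were -0.01, -0.11, -0.13 and 0.05 in dex, against 0.10, 0.04, 0.07 and 0.05 in DMSO. The array of DMSO 2 h replicate 3 set the 2 h difference of 1.05 ± 0.55 (SE; adjusted p = 0.538 by limma), which was 0.18 without it. It likewise set the change within DMSO, 1.11 ± 0.55 (adjusted p = 0.461), which was 0.24 without it. At 36 h the difference was -0.12 ± 0.55 (adjusted p = 0.978), with an SE pooled over all 4 groups, that array included.

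**Figure D3:**
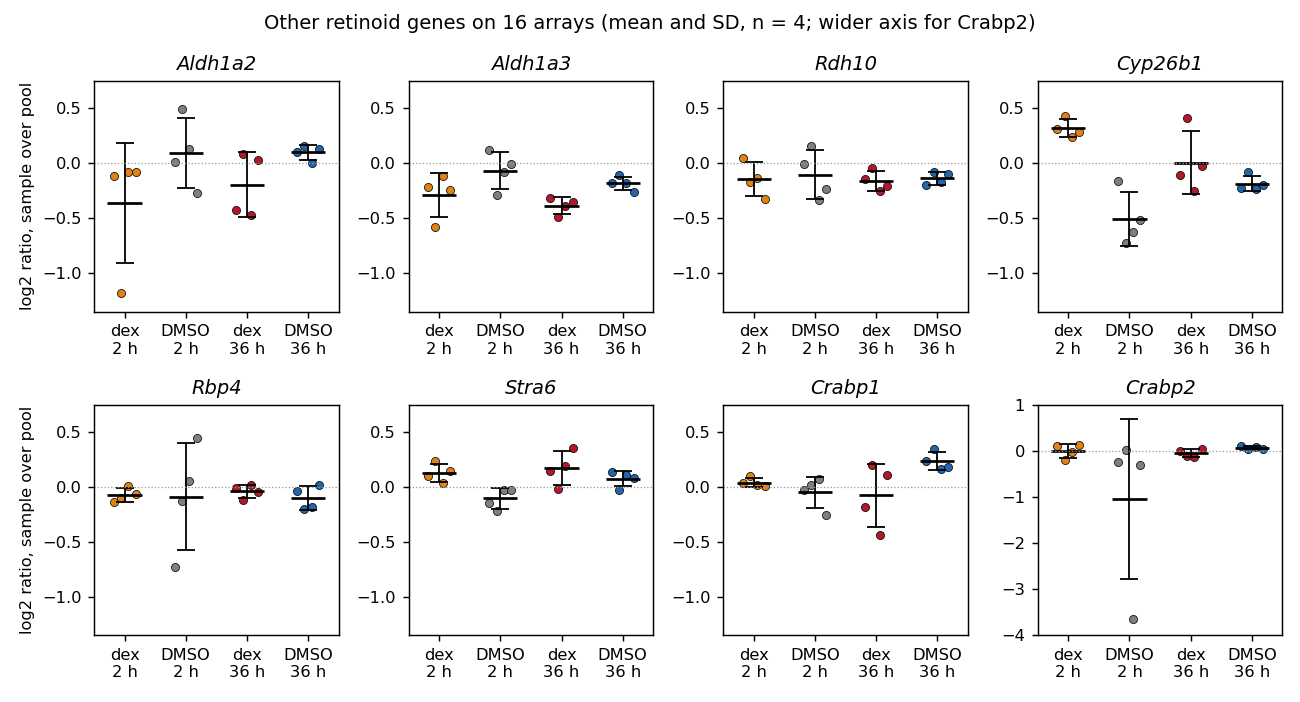
Log2 ratios of the other 8 genes over the pool (y axis) for each array in the groups on the x axis, dex left of DMSO at each time, with the group mean and SD. Cyp26b1 shows dex above DMSO at 2 h without overlap, and Crabp2 shows 1 DMSO array at -3.65.

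To place these genes in their pathway, 4 further lists were counted, with Nrip1, Rarb, Cyp26a1, Dhrs3 and Aldh8a1 each in 2 of them. The lists were chosen with earlier results of these data known, so their counts and p-values are not independent of these data. For a gene with several probes, the value quoted is that of the probe with the smallest p over both dex comparisons, and a gene counts as passing where at least 1 probe passed. Over all 19640 genes 1.97% were higher and 1.21% lower in dex than in DMSO at 2 h, and 6.88% higher and 4.96% lower at 36 h. The medians of all genes were -0.012 at 2 h and -0.0012 at 36 h. Between DMSO at 36 h and at 2 h 0.27% of genes were higher and 0.993% lower, and in each of the 4 lists 0 genes passed in that comparison. By unadjusted p in the limma fit, 4 enzymes and carriers, 4 receptors and corepressors, 3 targets and 6 aldehyde dehydrogenases were under 0.05 there.

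Of 30 measured enzymes and carriers outside the set, 0 passed at 2 h (6 under 0.05 unadjusted by limma) and 5 were higher and 0 lower in dex at 36 h, with a list median of 0.02 against the -0.0012 of all genes. Retsat, the retinol saturase, was higher by 0.70 ± 0.09 (SE; adjusted p = 1.81e-04), with -0.25 and no pass at its other probe. Dhrs9, a dehydrogenase able to oxidise retinol, averaged 0.50 ± 0.37 in dex and -0.22 ± 0.09 in DMSO at 36 h (SD, n = 4 each). It was higher by 0.72 ± 0.14 (SE; adjusted p = 0.00472), its other probes gave 0.66 and 0.77 and passed too, and its dex difference changed between 2 h (-0.47, adjusted p = 0.15) and 36 h by 1.19 ± 0.20 (adjusted p = 0.00431). Adh7 and Adh1, alcohol dehydrogenases that act on retinol, were higher by 0.57 ± 0.12 and 0.52 ± 0.14 (adjusted p = 0.00775 and 0.0274), and Adh5, mainly a formaldehyde-oxidising member of that family, by 0.35 ± 0.10 (adjusted p = 0.0335), with 0.33 and no pass at its other probe. Fabp5, a fatty acid carrier that can also carry retinoic acid, had 0.53 ± 0.15 at 2 h (adjusted p = 0.0988) and 0.47 ± 0.15 at 36 h (adjusted p = 0.063) and did not pass. Rbp7, a cellular retinol-binding protein of fat, had 0.80 ± 0.43 at 2 h (adjusted p = 0.549), with DMSO 2 h arrays from -2.72 to 0.28 and -0.24 at its other probe.

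**Figure D4:**
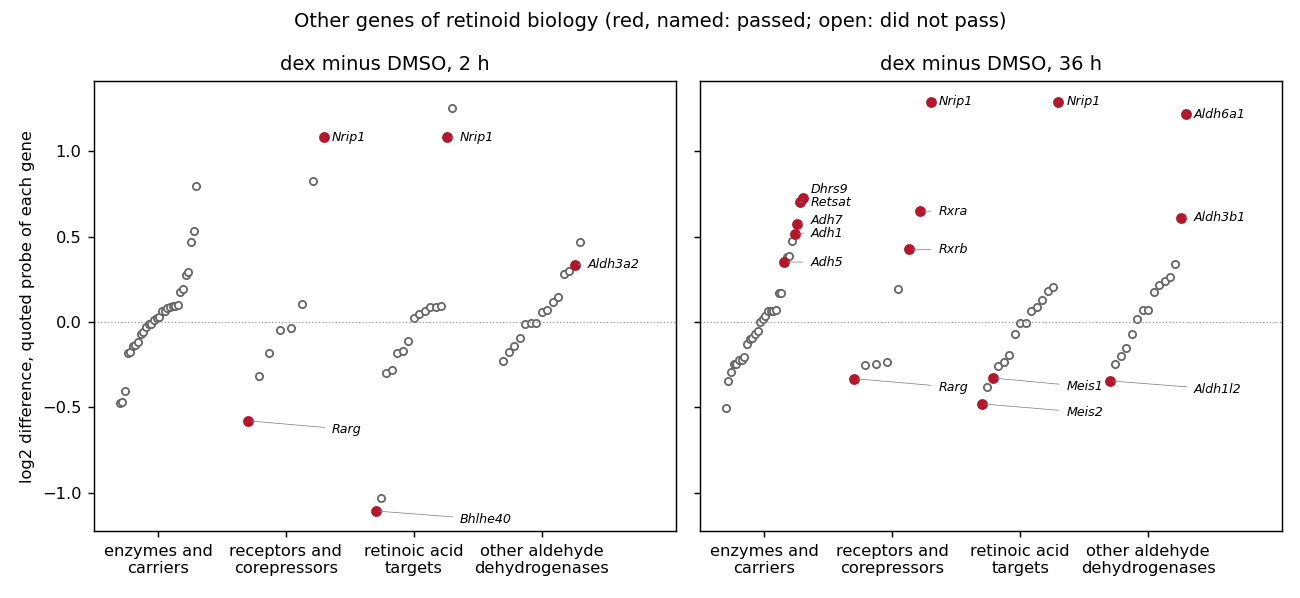
Log2 difference of dex minus DMSO (y axis) for the quoted probe of each gene in 4 lists (x axis), at 2 h on the left and at 36 h on the right. Filled named points passed by limma, among them Dhrs9 at 0.72 and Retsat at 0.70 at 36 h, and open points did not.

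Of 8 measured receptors and corepressors, 1 was higher and 1 lower in dex at 2 h, and 3 were higher and 1 lower at 36 h, with list medians of -0.044 and -0.022. Nrip1, a corepressor of nuclear receptors, was higher by 1.08 ± 0.12 at 2 h and 1.29 ± 0.12 at 36 h (SE; adjusted p = 5.04e-05 and 3.65e-06 by limma). Its other probe gave 0.83 and 0.03, so its probes disagreed at 36 h. Rarg, a retinoic acid receptor, averaged -0.10 ± 0.14 in dex and 0.48 ± 0.11 in DMSO at 2 h (SD, n = 4 each), lower by 0.58 on the log2 scale (-0.58 ± 0.09, SE; adjusted p = 8.76e-04), and was at -0.33 ± 0.09 at 36 h (adjusted p = 0.0251). Its partners Rxra and Rxrb were higher at 36 h by 0.65 ± 0.11 and 0.42 ± 0.08 (adjusted p = 0.00102 and 0.00279), with -0.35 and 0.03 at their other probes, so neither increase was seen by both probes of its gene. Rara gave -0.32 at 2 h and -0.25 at 36 h and did not pass (adjusted p = 0.362 and 0.29). Ppard, a fatty acid receptor that retinoic acid can reach through Fabp5, had 0.82 ± 0.41 at 2 h (adjusted p = 0.503), with dex 2 h arrays from 0.21 to 2.14 and 0.04 at its other probe.

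Of 15 measured genes known to respond to retinoic acid, 1 was higher and 1 lower in dex at 2 h, and 1 was higher and 2 lower at 36 h, with list medians of 0.02 and -0.0076. The gene that was higher is Nrip1 at both times. Bhlhe40, a transcriptional repressor, averaged -0.51 ± 0.07 in dex and 0.59 ± 0.30 in DMSO at 2 h (SD, n = 4 each). That is a difference of -1.11 ± 0.14 (SE; adjusted p = 1.61e-04 by limma), and the difference between times was 1.10 ± 0.19 (adjusted p = 0.00533). The homeobox genes Meis2 and Meis1 were lower at 36 h, with -0.48 ± 0.07 and -0.33 ± 0.09 (adjusted p = 3.45e-04 and 0.0312) and with -0.65 and -0.44 at their other probes, both past the threshold. Tgm2, tissue transglutaminase, had 1.25 ± 0.39 at 2 h and Hoxa4 -1.03 ± 0.50, and neither passed (adjusted p = 0.169 and 0.492). The DMSO 2 h arrays of Tgm2 reached from -2.64 to -0.07 and its other probe gave 0.13, and the dex 2 h arrays of Hoxa4 reached from -3.38 to 0.0077. Among the most direct retinoic acid targets, named here after their values were seen, Rarb had -0.18 at 2 h and -0.24 at 36 h (adjusted p = 0.672 and 0.322), with -0.05 and 0.21 at its other probe. Cyp26a1 had 0.085 and 0.064 (adjusted p = 0.775 and 0.795) and Dhrs3 0.02 and -0.07 (adjusted p = 0.975 and 0.906), so none of these 3 passed at either time.

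Of 15 measured aldehyde dehydrogenases other than the 3 of the set, Aldh8a1 with its activity on retinaldehyde among them, 1 was higher and 0 lower in dex at 2 h, and 2 were higher and 1 lower at 36 h, with list medians of 0.057 and 0.072. Aldh6a1, a mitochondrial enzyme of valine breakdown, averaged 0.58 ± 0.34 in dex and -0.64 ± 0.13 in DMSO at 36 h (SD, n = 4 each), higher by 1.22 ± 0.14 (SE; adjusted p = 3.66e-05 by limma). Aldh3b1 was higher at 36 h by 0.61 ± 0.11 (adjusted p = 0.00233) with 0.18 at its other probe, and Aldh3a2, which oxidises fatty aldehydes, was higher at 2 h by 0.34 ± 0.08 (adjusted p = 0.024). Aldh1l2, a mitochondrial enzyme of folate metabolism, was at -0.35 ± 0.09 at 36 h (adjusted p = 0.029). Aldh8a1 and Aldh3a1 had 0.47 and 0.30 at 2 h and did not pass (adjusted p = 0.442 and 0.645), and the other probes of Aldh8a1 gave 0.21 and 0.03. Beside the 3.41 of Aldh1a1, which was chosen on its values, the largest 36 h difference among these 15 quoted probes was the 1.22 of Aldh6a1.

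The genes whose ratios followed Aldh1a1 most closely over the 16 arrays were taken by Pearson's r, as a description, since arrays of 1 group share their treatment and r mostly reads the 4 group means. The 8 highest were Ifi205 (0.991), Dpep1 (0.976), Anxa8 (0.971), Cpm (0.966), Tsc22d1 (0.965), Ifi204 (0.964), Selenop (0.963) and 1700018A23Rik (0.962). Ifi205 and Ifi204 are interferon-inducible genes of 1 family, Dpep1 and Cpm membrane peptidases, Anxa8 an annexin and Selenop a secreted selenium carrier. Cpm and Tsc22d1 had other probes at r = 0.588, and at r = -0.804 and 0.912, so their probes disagreed. Ifi205 averaged 0.78 ± 0.27 in dex and -1.63 ± 0.28 in DMSO at 36 h, and 0.21 ± 0.14 in dex and -0.15 ± 0.07 in DMSO at 2 h (SD, n = 4 each), the same order of groups as Aldh1a1. 1700018A23Rik had a wider span at 36 h, 0.96 ± 0.23 in dex and -3.03 ± 0.28 in DMSO. The search covered those of the 29456 probes naming 1 gene that had no missing value and did not name Aldh1a1. Of them, 140 had an absolute r above 0.9 with Aldh1a1.

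**Figure D5:**
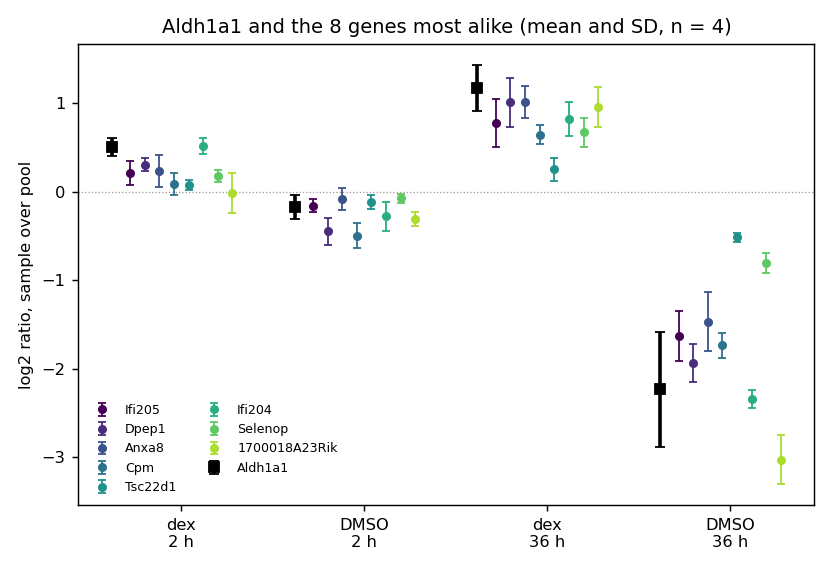
Group means and SDs (n = 4) of the log2 ratio over the pool for Aldh1a1 (squares) and the 8 genes most like it (circles), by group on the x axis with dex left of DMSO at each time. Each of the 8 is lowest in DMSO at 36 h, and Aldh1a1 averages 1.17 in dex and -2.23 in DMSO at that time.

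The 4 genes with the most opposite course were Nrep (r = -0.928), Cdh26 (-0.927), Abhd12 (-0.921) and 2310057N15Rik (-0.921). Nrep averaged -0.68 ± 0.22 in dex and 0.74 ± 0.07 in DMSO at 36 h (SD, n = 4 each). For the other 8 retinoid genes r with Aldh1a1 over the 16 arrays was -0.640 for Crabp1, -0.439 for Aldh1a2, -0.427 for Aldh1a3, -0.086 for Rdh10, -0.037 for Crabp2, 0.129 for Rbp4, 0.239 for Stra6 and 0.320 for Cyp26b1.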

How the data were processed

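Total RNA of 3T3L1 cells was extracted with RNeasy kits and labelled through amino allyl cDNA, sample in Cy5 and pool in Cy3, per the labels. The authors deposited 1 log ratio per probe and array, used here as log2 ratios of Cy5 over Cy3. The sources used here state neither the normalization nor the log base. The submitters' processing notes name limma. Read as log2 in this direction, the mean ratio to the pool of the 39 most variable probes had a median of 1.00, against 2.76 with the sign turned, 1.13 with natural logs and 2.98 with base 10. For the 384 most variable probes it was 0.976 read as log2, 1.74 with the sign turned, 1.01 with natural logs and 1.26 with base 10, so log2 and natural logs cannot be told apart by this check.

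All 16 arrays entered 1 group-means model (limma 3.58.1, R 4.3.3, eBayes) with 5 contrasts, and p-values were adjusted by Benjamini-Hochberg over 38467 probes. The model was tested on simulated data. No probe was filtered, and 131 values were missing on 3 arrays, none in the 9 genes. The 9 genes and the lists were chosen with earlier results of these data known. Genes named from a list were up to 5 that passed and the 2 with the largest mean difference that did not. By the annotation 29456 probes name 1 gene, 760 more than 1 and 8251 no gene, and 28735 matched a RefSeq gene by Entrez identifier. List genes without values here were not analysed. Alternatives were another normalization, array weights, the authors' log-odds rule, a fit of 2 groups only, probes averaged per gene, replicate blocks and leaving out each array. The number of arrays limits the precision.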

Additional observations from a re-analysis of the deposited data

Results flagged for a closer look

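For 3 of the 36 combinations of gene and group, 1 array lay far from the other 3 by Dixon's criterion at the 95% level, with gaps of 0.856, 0.968 and 0.911 of the group's range. Chance gives such a gap in about 1 of 20 groups. Crabp2 in DMSO 2 h replicate 3 was at -3.649, with the other 3 between -0.31 and 0.018. Aldh1a2 in dex 2 h replicate 2 was at -1.182, with the other 3 between -0.11 and -0.077. Aldh1a1 in DMSO 2 h replicate 4 was at 0.0311, with the other 3 between -0.25 and -0.21, on the array that also correlated least with its group. The difference of dex from DMSO for Aldh1a1 was larger at 36 h than at 2 h by 2.729. It was flagged by a rule on its adjusted p, which is not used as a test here, since the gene was chosen on its values. All 3 separate values were from arrays at 2 h.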

How the results depend on the processing

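Of 952 values of the other 8 genes under 24 alternative settings, 939 kept their side of the threshold, the remaining 13 came past it, and 0 changed the sign of a call. Every value of Aldh1a1 stayed within 1 within-group SD (0.362). For a comparison of 2 groups, leaving out an array of another group leaves the difference unchanged and alters only its error. Of the other 8 genes, array weights passed 2 at 2 h (Crabp2 added, 2.43, adjusted p = 0.0127), 3 at 36 h (Aldh1a2 -0.40, Aldh1a3 -0.15 and Crabp1 -0.35), 2 for the difference between the dex effects (Crabp2 -2.52 and Cyp26b1 -0.74), 1 within DMSO over time (Crabp2, 2.46) and 1 within dex over time (Cyp26b1, -0.34). The weights gave DMSO 2 h replicate 3, the array with the separate Crabp2 value, 1.35, against 0.12 to 0.42 for the rest of its group. At 36 h quantile normalization passed 1 (Crabp1, -0.37) and the fit on the 2 groups' arrays 1 (Aldh1a3, -0.20). Leaving out 1 array gave 1 to 1 genes at 2 h, 0 to 1 at 36 h (Crabp1 without dex 36 h replicate 2), 0 to 1 for the difference between the dex effects (Cyp26b1 without DMSO 2 h replicate 1 or dex 36 h replicate 2), and 0 to 0 for both changes over time. Over all probes, calls at 36 h numbered 3396, with 6654 by quantile normalization, 14765 by array weights, 6985 by the 2-group fit, 1461 by log-odds and 1874 to 4599 with 1 array left out. The 855 calls at 2 h were 374 by the 2-group fit. The 925 for the difference between the dex effects were 2022 by quantile normalization, 2606 by array weights and 614 to 1247 with 1 array left out. Within DMSO the 314 were 1065, 646 and, by the 2-group fit, 122, and 156 to 683 with 1 array left out. Within dex the 646 were 1123, 5665 and 349, and 222 to 1113. The highest of these counts was each time without DMSO 2 h replicate 4, and the lowest without dex 36 h replicate 1 (at 36 h and within dex), DMSO 36 h replicate 2 (the difference) or DMSO 36 h replicate 4 (within DMSO). Averaging probes gave 582, 1800, 570, 220 and 370 calls over 19640 genes. With a replicate block 1, 0, 0, 0 and 0 of the 8 genes passed, as without it, and Cyp26b1 at 2 h had an adjusted p of 0.00514. Whether the replicate numbers mark a pairing was not decided. Deviations of same-numbered arrays correlated at r = -0.10 to 0.26 at 2 h and -0.08 to 0.34 at 36 h. Of 8 arrays, 3 at 2 h and 4 at 36 h correlated best with their own number. Such values on noisy arrays neither show nor exclude a pairing. The replicate block gave 773, 2947, 723, 232 and 459 calls over all probes. The cause of these changes was not tested.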
